A study of Mus musculus with 5 samples.

Results

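Transcripts of 10 core genes of the Notch pathway were examined in prostate tumors of castrated and intact mice. They comprised the 4 receptors Notch1 to Notch4, the 4 ligands Jag1, Jag2, Dll1 and Dll4, and the 2 target genes Hes1 and Hey1, and were chosen by gene symbol. All 10 were found among the 24527 genes of the count table, and 10 of 10 passed the filter on low counts (counts per 1000000, CPM, above 1 in at least 2 samples), which left 14612 genes tested. After adjustment, 0 of the 10 genes passed the test of castrated against intact tumors, as did 0% of all genes tested. Dll1 was the 1 gene of the 10 without overlap between the groups, with every castrated sample above both intact samples, a separation found in 17.0% of all genes tested, while another 16.1% separated in the opposite direction.

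Whole prostate tumor tissue was sequenced as bulk RNA from mice of the genotype labelled hHGFtg-hMETtg-BCAT-PBCre, named TripleTg. These mice carried a ubiquitously expressed human HGF transgene, together with a human MET transgene and a stabilized β-catenin allele which a Cre driven by the prostate epithelial probasin promoter activates, on a mixed C57BL/6 and C3H SCID background. The 3 castrated mice underwent castration at 4 months of age and the 2 intact mice did not, and tumors of both groups were collected at 8 months. Since every mouse carried all of these alleles, no tumor without MET or β-catenin activation entered the comparison. The castrated libraries summed to 28015507, 18951782 and 20492061 counts and the intact libraries to 21560355 and 22853501. The lowest count of any of the 10 genes was 70, for Hey1 in intact replicate 2, so that counting error was small beside the differences between mice.

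Some samples stood apart in their tissue content before any Notch gene was considered. Intact replicate 2 held 28976 counts of Tgm4, a gene of differentiated prostate epithelium, against at most 12 counts in the other samples. Castrated replicates 2 and 3 held 1282 and 1402 counts of the adipocyte gene Adipoq, against 15 or fewer in each remaining sample. The luminal keratin Krt8 was abundant in all samples, with 14229 to 25775 counts, as for tissue that holds epithelium, while the secretory gene Msmb had 0 counts in every sample. In bulk tissue, fewer cells of a type and less RNA per cell cannot be told apart.

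Notch receptors are membrane proteins that are activated by ligands of the Jagged and Delta-like families on a neighboring cell. Ligand binding exposes the receptor to ADAM proteases and then to γ-secretase, which releases an intracellular domain that enters the nucleus, binds the DNA-binding protein RBPJ and switches on target genes, above all transcriptional repressors of the HES and HEY families. In the prostate, Notch signaling is known for roles in epithelial progenitors and in the balance between basal and luminal cells, and in most tissues it also acts in blood vessels, where Notch4 and Dll4 are typical of endothelium and Notch3 of the mural cells around it.

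RBPJ recognizes DNA around the core letters TGGGAA, which read TTCCCA on the opposite strand, and promoters were searched for these letters on both strands. The windows, taken from RefSeq for build GRCm38.p6, covered 250 bases before to 50 bases after each gene's start. Of 32851 such windows in the table, 25.6% held at least 1 match and 3.79% held at least 2. Of the 9 windows of the 8 receptor and ligand genes, 0 held a match. Among 47 other pathway genes, 36 had an entry, and 14 of their 48 windows, or 29.2%, held a match. Of these, 5 windows belonged to 4 of the 7 further HES and HEY family genes, and 3 of the 5 held 1 or more. To show what the search found, the 250 bases before the start are given for Hes5 and Hey2, the 2 family members with 2 matches, and for Dll1, the gene whose groups did not overlap, on the strand of each gene with matches in capitals. The Hes5 sequence lies on the plus strand at chr4:154960673-154960922, that of Hey2 on the minus strand at chr10:30842784-30843033, and that of Dll1 on the minus strand at chr17:15375824-15376073.
Hes5: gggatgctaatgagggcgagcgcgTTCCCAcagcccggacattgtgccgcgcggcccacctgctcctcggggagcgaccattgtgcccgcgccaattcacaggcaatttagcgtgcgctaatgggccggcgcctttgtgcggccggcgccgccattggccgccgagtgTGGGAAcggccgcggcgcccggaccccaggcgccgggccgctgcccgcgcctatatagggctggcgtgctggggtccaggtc
Hey2: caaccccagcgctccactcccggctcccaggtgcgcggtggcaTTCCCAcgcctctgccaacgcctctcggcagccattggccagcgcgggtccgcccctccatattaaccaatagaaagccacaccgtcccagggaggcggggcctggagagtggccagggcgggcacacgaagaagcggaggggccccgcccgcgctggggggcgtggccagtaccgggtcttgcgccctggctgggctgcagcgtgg
Dll1: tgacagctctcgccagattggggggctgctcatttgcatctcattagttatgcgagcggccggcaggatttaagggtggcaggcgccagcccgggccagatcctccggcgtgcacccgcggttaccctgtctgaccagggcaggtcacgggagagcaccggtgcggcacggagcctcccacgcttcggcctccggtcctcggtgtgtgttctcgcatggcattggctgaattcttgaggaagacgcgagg

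The Hes5 matches began 226 and 82 bases before the start. In Hey2 they began 207 bases before the start and 3 bases before it, the latter running past the end of the printed sequence. A match is a description of the letters and not evidence of binding, and the absence of these letters from a window says nothing about RBPJ at that gene. Hes1, Hey1 and 3 of the 7 further family genes were not among the windows.

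Levels were first ordered across genes in transcripts per 1000000 (TPM), which divides counts by the deposited gene length. Hes1, a basic helix-loop-helix repressor, was by far the most abundant, with 133 ± 37.0 TPM (SD over all samples, n = 5), above 91.7% of the tested genes. Next came Jag1 with 36.7 ± 21.7 TPM, Notch2 with 21.2 ± 8.09 TPM, Jag2 with 19.1 ± 7.02 TPM and Notch1 with 18.0 ± 3.56 TPM. The remaining genes were expressed at lower levels, with 8.17 ± 3.62 TPM for Notch3, 7.25 ± 3.79 TPM for Hey1, 7.22 ± 3.11 TPM for Dll4, 5.62 ± 4.95 TPM for Notch4 and 4.23 ± 1.58 TPM for Dll1. Between neighbors in this order, Hes1 lay above Jag1, and Notch1 above Notch3, in 5 of 5 samples without overlap of their ranges. The ranges of all other neighbors overlapped.

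**Figure D1:**
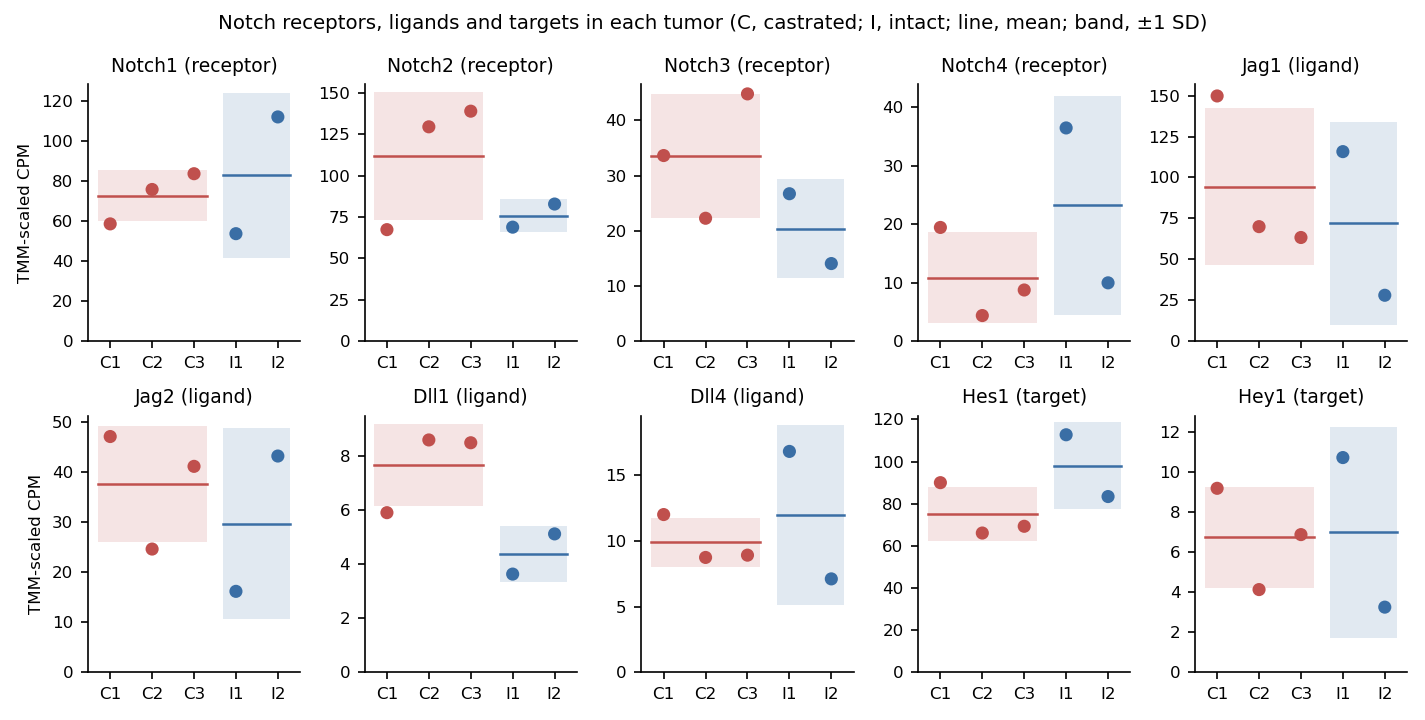
TMM-scaled CPM of each of the 10 genes (y axis, from 0) in the castrated samples C1 to C3 (red) and the intact samples I1 and I2 (blue, x axis). Lines are group means and bands 1 SD on either side, and Dll1 is the gene in which the red points all lie above the blue ones, from 5.90 upward against at most 5.11.

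Among the receptors, Notch2 and Notch3 had a higher mean and Notch1 and Notch4 a lower mean in castrated tumors, each with overlapping groups. Values are CPM after trimmed mean of M-values (TMM) scaling unless stated otherwise, and fold changes are castrated minus intact on the log2 scale. Notch2 (chromosome 3, 98013538 to 98150367) measured 67.4, 129.6 and 139 CPM in castrated samples (replicates 1, 2 and 3, here and throughout) and 68.9 and 82.9 CPM in intact samples. Castrated replicates 2 and 3 stood above the remaining samples, but castrated replicate 1 was the lowest of all. With the quasi-likelihood test of edgeR, used throughout, Notch2 had a log2 difference of 0.56 (standard error, SE, 0.36, adjusted p = 0.495). Castrated replicates 2 and 3 are also the samples with adipocyte transcripts, whose part in the Notch2 values was not tested.

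Notch3 (chromosome 17, 32120820 to 32166890) measured 33.6, 22.3 and 44.8 CPM in castrated samples and 26.7 and 14.0 CPM in intact samples. Castrated replicate 2 lay between the intact samples, and the log2 fold change was 0.72 (SE 0.43, adjusted p = 0.471). It was 1.28 without intact replicate 1 and 0.29 without intact replicate 2. Notch1 (chromosome 2, 26457902 to 26503822), the receptor most studied in cancer, measured 58.5, 75.7 and 83.6 CPM in castrated samples. The intact samples, at 53.6 and 112 CPM, were the lowest and the highest of the 5 and enclosed every castrated sample. The difference on the log2 scale was -0.19 (SE 0.36, adjusted p = 0.832), with -0.61 without intact replicate 1 and 0.39 without intact replicate 2.

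Notch4 (chromosome 17, 34564295 to 34588543) was the most variable of the 10 genes. Its levels were 19.4, 4.34 and 8.72 CPM in castrated samples and 36.5 and 9.95 CPM in intact samples, an 8.40-fold span from lowest to highest that exceeded the span of 86.2% of the tested genes. Intact replicate 1 was highest, followed by castrated replicate 1, so the values were high in 1 mouse of each group. The log2 fold change was -1.10 (SE 0.79, adjusted p = 0.549), and without intact replicate 1 it was 0.15.

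Among the 4 ligands Jag1, Jag2, Dll1 and Dll4, the levels of Jag1 (chromosome 2, 137081451 to 137116520) varied most. It measured 149.9, 69.9 and 63.3 CPM in castrated samples and 116 and 27.9 CPM in intact samples, a 5.37-fold span. As for Notch4, the values were highest in castrated replicate 1 and intact replicate 1, and intact replicate 2 was the lowest. The log2 fold change of 0.39 (SE 0.69, adjusted p = 0.817) became 1.78 without intact replicate 1 and -0.34 without intact replicate 2.

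Jag2 (chromosome 12, 112908590 to 112929495), the other Jagged ligand, showed a different order. It was highest in castrated replicate 1 and intact replicate 2, at 47.1 and 43.2 CPM, and lowest in intact replicate 1 and castrated replicate 2, at 16.2 and 24.6 CPM, with 41.1 CPM in castrated replicate 3. The difference on the log2 scale was 0.34 (SE 0.50, adjusted p = 0.777), and without intact replicate 1 it was -0.18.

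The Delta-like ligands were less abundant. Dll1 (chromosome 17, 15367354 to 15375823) measured 5.90, 8.58 and 8.48 CPM in castrated samples, and 3.63 and 5.11 CPM in intact samples, so that every castrated sample was above both intact samples. The means were 7.65 ± 1.52 CPM (SD, n = 3) and 4.37 ± 1.05 CPM (SD, n = 2). The log2 fold change was 0.81 with a standard error of 0.39, the unadjusted p was 0.0901, and the p adjusted over all 14612 genes was 0.387, so the difference did not pass the test. It was in the same direction under all 16 alternative settings, from 0.43 to 1.03. Where samples were left out this direction was fixed, since the groups did not overlap, and the other settings refit the same samples. The unadjusted p was 0.0471 with DESeq2, which gave an adjusted p of 0.233. With DESeq2, 12.1% of all genes tested were higher at an unadjusted p under 0.05.

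Dll4 (chromosome 2, 119325784 to 119335666) measured 12.0, 8.74 and 8.92 CPM in castrated samples, while the intact samples at 16.8 and 7.11 CPM were the highest and the lowest. The difference on the log2 scale was -0.27 (SE 0.45, adjusted p = 0.802), and 0.50 without intact replicate 1. The methods do not state whether reads were counted by strand, and in the GENCODE annotation vM21 an exon of another transcript on the opposite strand overlaps an exon of Notch1, Notch3, Dll1 and Dll4. Reads of these transcripts and of the Notch genes cannot be told apart without strand. An exon of Notch2 is overlapped by a transcript on the same strand, Gm42820, whose reads strand would not separate.

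Both target genes had overlapping groups, with a lower mean in castrated tumors. Hes1 (chromosome 16, 30065357 to 30067796) measured 90.0, 66.1 and 69.3 CPM in castrated samples and 113 and 83.4 CPM in intact samples. Castrated replicates 2 and 3 were below both intact samples and castrated replicate 1 lay between them. The log2 fold change of Hes1 was -0.38 (SE 0.24, adjusted p = 0.485), negative under all 16 alternative settings, from -0.63 to -0.13. It was also the least variable of the 10 genes, with a 1.70-fold span.

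Hey1 (chromosome 3, 8663359 to 8667038), a repressor of the related HEY family, measured 9.18, 4.13 and 6.87 CPM in castrated samples and 10.7 and 3.25 CPM in intact samples. The intact samples were again the highest and the lowest, and the log2 fold change was -0.05 (SE 0.63, adjusted p = 0.978). Its direction turned under 5 of 16 alternative settings, the largest being 1.07 without intact replicate 1.

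**Figure D2:**
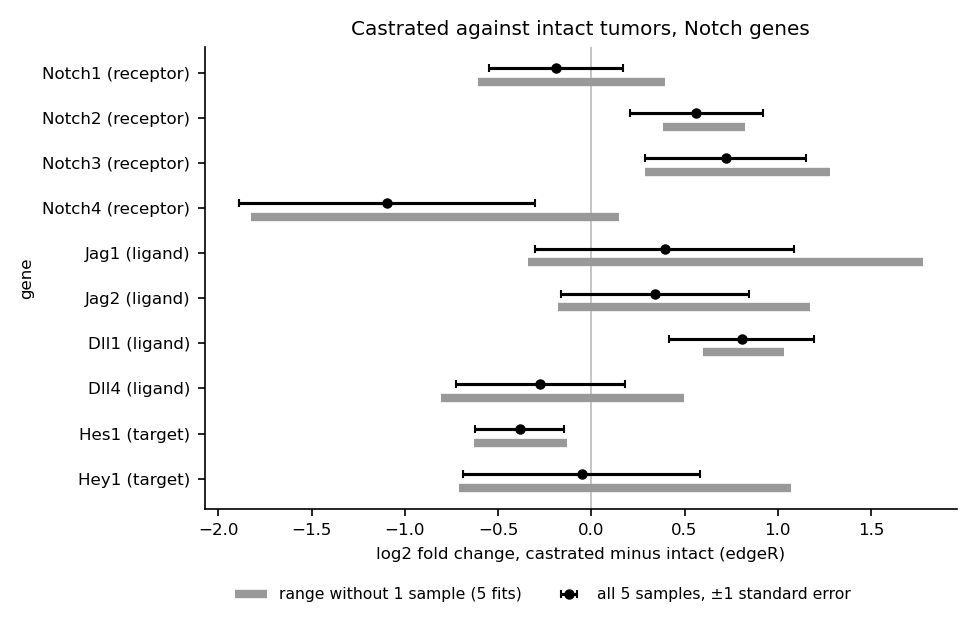
Log2 fold change of castrated against intact tumors (x axis) for the 10 genes (y axis). Black points are fits on all 5 samples with 1 standard error on either side and grey bars the range over the 5 fits that each left out 1 sample; the bars of Notch2, Notch3, Dll1 and Hes1 stay on one side of 0, and those of the other 6 cross it.

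Over the 10 genes, 5 had a higher and 5 a lower mean in castrated tumors, with a median log2 fold change of 0.14, against -0.03 over all genes tested. With the call set at an adjusted p under 0.05 and a log2 fold change beyond 1 either way, the quasi-likelihood test of edgeR called 0 of the 10 genes and 0% of the 14612 genes tested. At an unadjusted p under 0.05, 0 of the 10 genes were higher and 0 lower, where 8.74% of all genes tested were higher and 6.28% lower. In the same table, DESeq2 called 989 genes and the likelihood ratio test 369 after adjustment, with 0 of the 10 genes among them.

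Castrated samples all lay above both intact samples in 1 of the 10 genes, Dll1, and all below in 0, where these shares were 17.0% and 16.1% of all genes tested. The count of non-overlapping genes depended on single samples. It was 4, 2 and 1 without castrated replicate 1, 2 or 3, and 6 and 7 without intact replicate 1 or 2. With fewer samples groups overlap less by construction. The share over all genes tested was 49.8%, 39.7%, 37.7%, 72.0% and 67.4% in these settings, against 33.1% with all samples.

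The composition of receptors and ligands was compared within each sample, as each gene's share of the summed TPM of the 4 receptors or of the 4 ligands Jag1, Jag2, Dll1 and Dll4. Notch2 was the leading receptor in castrated replicates 1, 2 and 3, with 32.5%, 52.0% and 45.7%, and in intact replicate 1, with 31.1%. In castrated replicate 1 its lead was narrow, with Notch1 at 31.3%. Intact replicate 2 differed in that Notch1 led with 51.4%, ahead of Notch2 with 34.4%. Notch3 contributed from 7.60% to 21.2%. The share of Notch4 ranged from 2.77% in castrated replicate 2 to 26.3% in intact replicate 1.

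Among these 4 ligands, and leaving out atypical ligands such as Dner, the Jagged ligands together held from 78.9% of the summed TPM in castrated replicate 2 to 88.2% in castrated replicate 1, with 80.9% and 81.6% in intact replicates 1 and 2. Within the Jagged ligands, Jag1 led in castrated replicates 1, 2 and 3, at 61.9%, 53.4% and 43.1% of the TPM of the 4 ligands, and in intact replicate 1, at 68.0%. In the remaining intact sample, replicate 2, Jag2 led with 55.3% against 26.3% for Jag1. The summed ligand level was 104, 56.7 and 62.3 TPM in castrated samples and 76.9 and 35.9 TPM in intact samples, and the summed receptor level was 46.4, 56.4 and 67.3 TPM in castrated samples and 52.2 and 42.7 TPM in intact samples. Both sums overlapped between the groups.

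**Figure D3:**
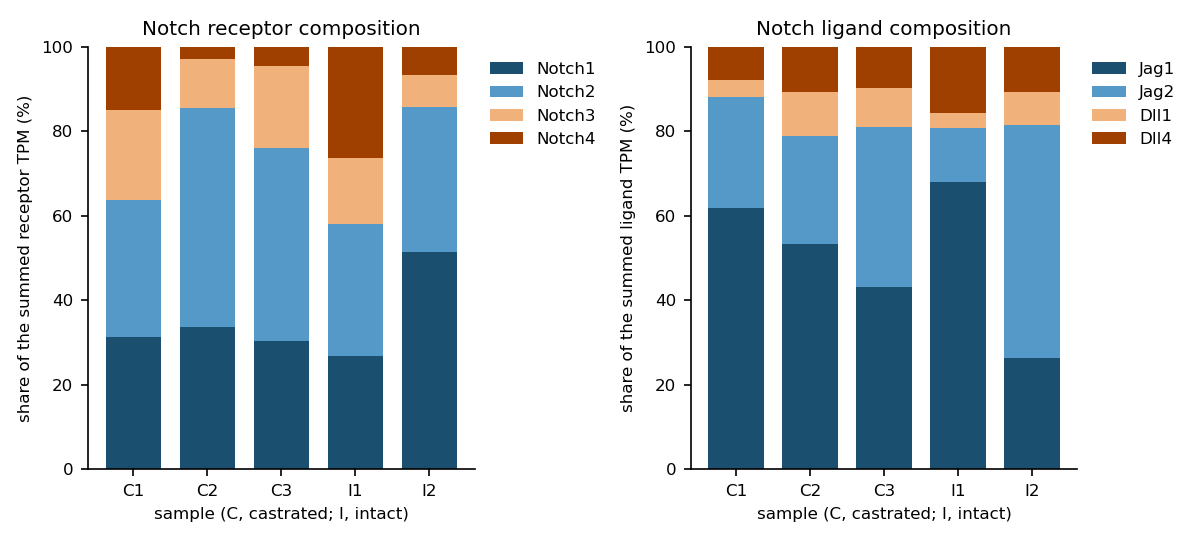
Share of each receptor (left) and each ligand (right) in the summed TPM of the 4 receptors or 4 ligands plotted (y axis, percent) in each sample (x axis). Intact replicate 2 (I2) is the sample in which Notch1 at 51.4% and Jag2 at 55.3% lead, whereas Notch2 and Jag1 lead in the other 4 samples.

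Another 47 genes that carry out or modify Notch signaling were then examined by role, of which 41 passed the filter on low counts. Of these, 23 had a higher and 18 a lower mean in castrated tumors, with a median log2 fold change of 0.10. None passed the adjusted test. At an unadjusted p under 0.05, 3 genes, or 7.32%, were higher, near the 8.74% of all genes tested. None was lower, against 6.28% of all genes tested. Castrated samples all lay above both intact samples for 7 genes, or 17.1%, against 17.0% of all genes tested, and all below for 1 gene, or 2.44%, against 16.1%.

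Among the enzymes that add sugars to Notch receptors, 4 of 5 had a higher and 1 a lower mean. Mfng, a fringe glycosyltransferase that changes the response of Notch to its ligands, measured 6.80, 25.3 and 9.89 CPM in castrated samples and 3.85 and 3.25 CPM in intact samples. Every castrated sample was above both intact samples, with castrated replicate 2 far above the others, and the log2 fold change was 1.97 (SE 0.67, unadjusted p = 0.0299, adjusted p = 0.309). Poglut1, an O-glucosyltransferase, was the most abundant gene of this role with 48.5 ± 9.27 TPM (SD, n = 5).

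Among the proteases that cleave the receptor, 6 of 10 had a higher and 4 a lower mean. Aph1b, a subunit of γ-secretase, measured 16.8, 23.4 and 13.2 CPM in castrated samples and 4.26 and 4.93 CPM in intact samples, which left a clear gap between the groups. The difference on the log2 scale was 1.95 (SE 0.38, unadjusted p = 0.00304, adjusted p = 0.289), and the call was made by both DESeq2 and the likelihood ratio test. The value is uncertain, since Aph1b and its neighbor Aph1c are near-identical copies between which the counting could split reads, which was not tested. Aph1c measured 2.97, 34.7 and 14.4 CPM in castrated samples and 2.87 and 5.39 CPM in intact samples, with overlapping groups. Adam10, the protease that makes the first ligand-induced cut and the most abundant gene of this role with 216 ± 72.5 TPM (SD, n = 5), differed by -0.50 on the log2 scale (SE 0.31) and did not pass the test.

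Among inhibitors and turnover factors, 6 of 9 had a higher and 3 a lower mean. Dtx1, a Deltex ubiquitin ligase, had 56, 40 and 134 counts in castrated samples and 2 and 8 counts in intact samples. All castrated samples were above both intact samples, and the log2 fold change was 3.91 (SE 1.0, unadjusted p = 0.0101, adjusted p = 0.290), a difference likewise called by DESeq2 and the likelihood ratio test. Dtx3, a relative of Dtx1 and the most abundant gene of this role with 64.1 ± 15.5 TPM (SD, n = 5), was the 1 pathway gene with all castrated samples below both intact samples, at a log2 fold change of -0.44 (SE 0.19, unadjusted p = 0.0714).

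The other roles held 0 genes at an unadjusted p under 0.05. In the nuclear complex and its corepressors, 2 of 8 genes had a higher and 6 a lower mean. Rbpj, the DNA-binding protein of the complex, measured 44.8, 104.8 and 78.4 CPM in castrated samples and 51.8 and 86.8 CPM in intact samples. Of the 4 ubiquitin ligases that act on ligand endocytosis, 2 were higher and 2 lower, with Mib1 the most abundant at 34.9 ± 7.20 TPM (SD, n = 5).

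Among further ligands, 2 of 4 were tested and both had a higher mean. The atypical ligand Dner, the most abundant of them, spanned 122 CPM in castrated replicate 1, 43.8 and 35.0 CPM in castrated replicates 2 and 3, 75.2 CPM in intact replicate 1 and 4.37 CPM in intact replicate 2. Of the further HES and HEY genes, 3 of 7 were tested, with 1 higher and 2 lower. Hes6 was the most abundant at 93.0 ± 48.7 TPM (SD, n = 5), with 94.6 CPM in intact replicate 1 and from 30.0 to 67.5 CPM in the other samples.

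**Figure D4:**
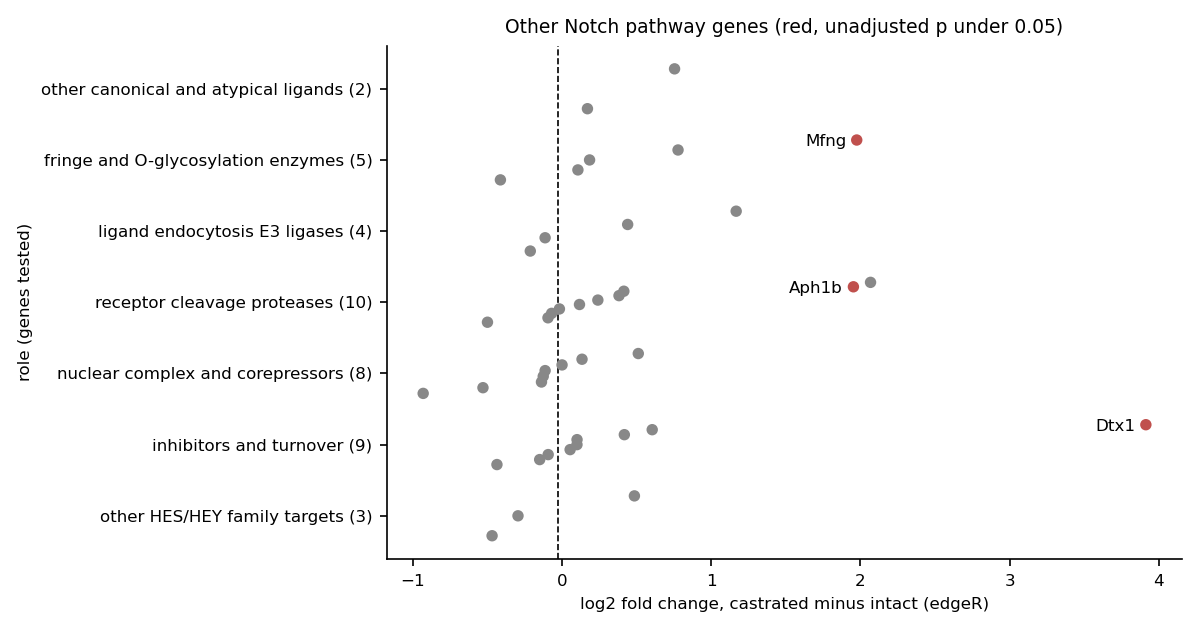
Log2 fold change of castrated against intact tumors (x axis) of 41 tested pathway genes, each a point, by role (y axis, with the number of genes tested). The 3 red points, Mfng, Aph1b and Dtx1, had an unadjusted p under 0.05, and the dashed line is the median of all genes tested at -0.03.

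Markers of the cell types that could carry Notch genes were summed in TPM in every sample. The 9 endothelial genes, of which 7 had a higher and 2 a lower mean and 2 an unadjusted p under 0.05, summed to 749, 222 and 293 TPM in castrated samples and 407 and 112 TPM in intact samples. Their most abundant gene was Cldn5, which reached 7316 counts in castrated replicate 1, and none was at 0. The endothelial sum was highest in castrated replicate 1 and intact replicate 1, the samples with the highest Notch4, Jag1, Dll4, Hes1 and Hey1, and lowest in intact replicate 2. The list was not uniform, since Cdh5, Cldn5 and Emcn carried most of the sum in intact replicate 1, at 141, 78.0 and 60.3 TPM, while Pecam1, Tek and Kdr were lower there than in every castrated sample on the CPM scale. The part of endothelium in these values was not tested.

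The 10 genes of pericytes and vascular smooth muscle all had a higher mean in castrated tumors, 6 with an unadjusted p under 0.05, and summed to 602, 780 and 692 TPM in castrated samples and 357 and 201 TPM in intact samples. Tagln was the most abundant and none was at 0. This list too was not uniform, with overlapping groups for Rgs5, Pdgfrb, Cspg4 and Kcnj8. The 6 genes at an unadjusted p under 0.05 were Abcc9, Acta2, Myh11, Tagln, Cnn1 and Des. Notch3 and the sum were both lowest in intact replicate 2. The sum peaked in castrated replicate 2, whereas Notch3 there, at 22.3 CPM, was below castrated replicates 1 and 3 and intact replicate 1. The part of mural cells in the Notch3 values was not tested. The 5 fibroblast genes, led by Dcn, summed to 2147, 4067 and 5637 TPM in castrated samples and 1735 and 865 TPM in intact samples, with 4 higher and 1 lower and 3 at an unadjusted p under 0.05. Both Notch2 and Dll1 were higher in castrated replicates 2 and 3, where this sum was highest, than in the other samples. Dcn made up most of the sum there, with 3007 and 4233 TPM, whereas the collagen genes Col1a1 and Col1a2 were higher in castrated replicate 1 and intact replicate 1 than in castrated replicates 2 and 3, and the part of fibroblasts in these values was not tested.

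The 5 luminal genes, led by Krt18, summed to 4590, 4268 and 5179 TPM in castrated samples and 6782 and 3436 TPM in intact samples, with 1 higher and 4 lower. The 4 basal genes, led by Krt15, summed to 371, 415 and 981 TPM in castrated samples and 94.7 and 585 TPM in intact samples, with 1 higher and 3 lower and 1 at an unadjusted p under 0.05. The list was not uniform, since Krt5, Krt14 and Trp63 were highest in intact replicate 2, at 405, 139 and 101 CPM, and Krt15 in castrated replicate 3. Notch1 and Jag2 were both lowest in intact replicate 1, the sample with the lowest basal sum. The sum was highest in castrated replicate 3, whereas Notch1 was highest in intact replicate 2 and Jag2 in castrated replicate 1. The part of basal cells in these values was not tested.

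The 5 macrophage genes, led by C1qa, were higher in 5 of 5 cases, all at an unadjusted p under 0.05, and summed to 1196, 3233 and 1433 TPM in castrated samples and 603 and 553 TPM in intact samples. Mfng was highest in castrated replicate 2, which also had the highest macrophage sum. The 5 T cell genes, led by Cd3g, summed to 12.1, 59.9 and 56.0 TPM in castrated samples and 3.45 and 33.9 TPM in intact samples, with 4 higher and 1 lower. The 6 adipocyte genes, led by Cfd, were all higher, 5 at an unadjusted p under 0.05, and summed to 6.06, 661 and 720 TPM in castrated samples and 0.202 and 0.239 TPM in intact samples, with Lep and Cfd at 0 counts in both intact samples. The part of these cells in the Notch values was not tested.

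Of the 4 neuroendocrine genes, 3 were tested, all higher at an unadjusted p under 0.05, and the list summed to 12.7, 21.8 and 17.6 TPM in castrated samples and 1.10 and 1.44 TPM in intact samples. The prostate secretory genes, led by Tgm4, summed to 1396 TPM in intact replicate 2 and from 4.08 to 18.2 TPM in the other samples. The sample in which Notch1 and Jag2 led their families thus had the highest secretory sum. It also had the highest Krt5, Krt14 and Trp63, whereas Krt15 and the basal sum were highest in castrated replicate 3. The part of secretory and basal cells in these shares was not tested.

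**Figure D5:**
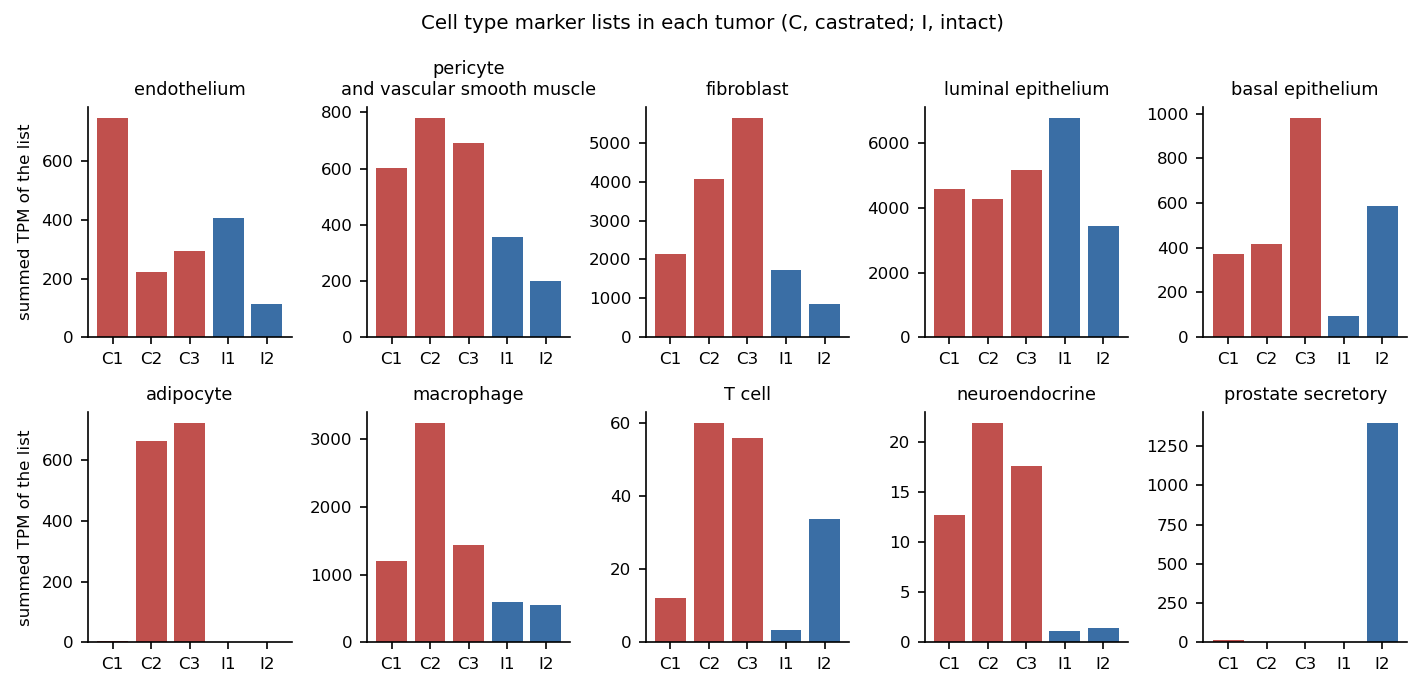
Summed TPM of each cell type marker list (y axis, a scale of its own for each list, from 0) in the castrated samples C1 to C3 (red) and the intact samples I1 and I2 (blue). Endothelial markers peak in C1 at 749 and I1 at 407, adipocyte markers in C2 and C3 at 661 and 720, and secretory markers in I2 at 1396.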

How the data were processed

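The deposited values are raw counts per gene, which the authors obtained with HTSeq 2.0.2 after trimming (Trimmomatic 0.39) and alignment to mm10 (STAR 2.7.9) of paired-end reads from rRNA-depleted libraries. The annotation and strand setting are not given in the sources used here. The deposited gene length in kilobases (unit other) was used for TPM alone.

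Counts of 3 castrated and 2 intact samples, grouped by their titles, were analyzed with R 4.3.3 and edgeR 4.0.16. Genes whose CPM exceeded 1 in 2 or more samples entered the quasi-likelihood F-test (legacy set to false) with TMM normalization, and p-values were adjusted over all 14612 genes by the Benjamini-Hochberg method. Counts replaced the TPM input that the methods name. Each standard error was derived from the log2 fold change and its F statistic. DESeq2 1.42.0 and limma voom (limma 3.58.1) were alternatives, as were the likelihood ratio test, other scalings and filters, a replicate block, and leaving out samples. The procedure was run on simulated counts with 200 changed genes, which held no shared shifts in tissue content between samples.

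The genes and lists were chosen with earlier results of these data known. Named genes are the 10 genes, the most abundant gene of each list and role, markers at 0 in every sample, and pathway genes at an unadjusted p under 0.05, some of which are not reported here. Rbpj, Aph1c, Hey2, Heyl, Dll3, Dlk1, Hes2, Hes3, Hes5, Hes7, Adipoq, Krt8 and other single marker genes, and the promoters of HES and HEY genes, were named after their values were seen. The p-values set the group difference against the spread between these mice, each a separate animal, which the fit moderates over all genes.

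Replicates were checked for duplicate libraries, and every pair within a group differed by more than sampling noise. Coordinates are as the count table gives them (mm10). Promoters are RefSeq sequences of GRCm38.p6, which is mm10.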

Additional observations from a re-analysis of the deposited data

How the results depend on the processing

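Of 160 log2 fold changes of the 10 genes under 16 alternative settings each, 148 kept their direction, 12 reversed and 0 passed an adjusted p under 0.05. The older quasi-likelihood fit and the setting without castrated replicates 2 and 3 were chosen after seeing the data. The cause of a change was not tested, except that settings with fewer samples have less precision. Without an intact replicate, or without castrated replicates 2 and 3, the lone sample of its group was assumed to vary like the others. Hey1 reversed to 0.15 with limma voom, 0.054 with the replicate block, and 0.38 without castrated replicates 2 and 3, the setting in which Notch2 reversed to -0.17, a sign fixed by keeping the castrated sample with the lowest Notch2 level. Leaving out each replicate in turn gave log2 fold changes of -0.61 to 0.39 for Notch1, -1.83 to 0.15 for Notch4 and -0.34 to 1.78 for Jag1. They ran from -0.18 to 1.17 for Jag2, -0.81 to 0.50 for Dll4 and -0.71 to 1.07 for Hey1. The range did not cross 0 for Notch2, Notch3, Dll1 and Hes1, which for Dll1 was fixed by its groups not overlapping.

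All genes called numbered 989 with DESeq2 (703 higher, 286 lower), 369 with the likelihood ratio test, and 0 to 1 when a replicate was left out. At an unadjusted p under 0.05, 2195 of 14612 genes passed, against 3029 with DESeq2 (12.1% higher, 8.64% lower), 257 without castrated replicates 2 and 3 and 1011 to 3292 when a replicate was left out. Of the 10 genes, 1 passed with DESeq2 (Dll1) and 0 to 1 when a replicate was left out (Notch2 without castrated replicate 1, Jag1 without intact replicate 1). The count of non-overlapping genes ran from 1 to 7 when a replicate was left out and was 5 without castrated replicates 2 and 3, where 59.1% of all genes did not overlap. Of the 41 pathway genes, 3 passed, against 6 with DESeq2, 0 without castrated replicates 2 and 3 and 2 to 11 when a replicate was left out. With a replicate block, 1046 genes passed at the unadjusted p and 0 after adjustment. Same-numbered mice are different animals, and their deviations from the group means had a correlation of 0.149 for number 1 and -0.045 for number 2. With 2 intact samples the intact deviations mirror each other, so these values cannot show whether same-numbered samples shared a litter or batch. Receptor and ligand shares in CPM in place of TPM moved by less than the SD between samples. The lowest count of the 10 genes was 70, and precision at other depths or other numbers of mice was not compared.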

Other observations

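Several Notch pathway genes were below the filter on low counts. Dll3, an inhibitory ligand known from neuroendocrine tumors, had 8, 7 and 5 counts in castrated replicates 1, 2 and 3, and 0 and 1 counts in intact replicates 1 and 2. The atypical ligand Dlk1 had 49 counts in castrated replicate 3 and from 1 to 6 in the other samples. Of the HES family, Hes2 had from 2 to 6 counts, Hes7 from 2 to 4, and Hes3 and Hes5 at most 1, so that Hes5, whose promoter window held 2 matches to the RBPJ letters, was at the limit of detection in all samples.

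Hey2 and Heyl, relatives of Hey1, passed the filter but also varied within groups. Hey2 measured 16.7 CPM in castrated replicate 1 and 13.8 CPM in intact replicate 2, against 1.66 to 3.27 CPM in the other samples. Heyl followed the order of Jag1, with 34.0 CPM in castrated replicate 1, 26.9 CPM in intact replicate 1, 18.1 and 17.2 CPM in castrated replicates 2 and 3, and 6.09 CPM in intact replicate 2.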
